A study of Mus musculus with 4 samples.

Results

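Liver sinusoidal endothelial cells were selected on their own RNA from the non-parenchymal single-cell suspension of mouse livers, and the members were chosen by the measured UMI counts of 4 sinusoidal genes. A cell belonged to them when the unique molecular identifiers (UMIs, one per captured transcript) of Stab2, Clec4g, Oit3 and Kdr summed to at least 3, with at least 2 of these 4 genes seen. It also had to hold no UMI of Vwf, Ptprc, Cd3e, Trac or Cd79a and fewer than 5 UMIs of the C1q genes. By this rule 2048 of 82905 cells were members. The MASH library of 12 weeks gave 650 of 17225 cells and the chow library of 12 weeks 826 of 18436. The MASH library of 24 weeks gave 222 of 19953 cells and the chow library of 24 weeks 350 of 27291.

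Sinusoidal endothelial cells line the capillaries of the liver lobule. They are perforated by open fenestrae and, unlike other capillary endothelium, rest on almost no basement membrane. They clear waste molecules from portal blood through scavenger receptors such as the stabilins and the mannose receptor, and they send Wnt, BMP and hepatocyte growth factor signals to the hepatocytes and stellate cells around them. In chronic liver injury they are known to lose fenestrae and to take on features of ordinary capillaries, a change called capillarization. Cells near the central vein and cells near the portal tract differ in the genes they express.

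All animals were male C57BL/6J mice from a commercial breeder, 8 weeks old at the start, and the labels name no transgene or deletion. The MASH groups received the FAT-MASH regimen for 12 or 24 weeks. It joined a Western diet rich in fat, sucrose and cholesterol to drinking water with fructose and glucose and to a weekly intraperitoneal low dose of carbon tetrachloride, a hepatotoxin. It is therefore a model of diet with repeated toxic injury and not of diet alone. The chow groups ate a regular diet for the same times. Livers were kept on ice overnight, digested with collagenase and passed through a Percoll gradient, and the series was made to follow uPAR, the protein of Plaur.

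Each of the 4 groups was 1 library of 10x 5′ single-cell RNA sequencing. Hashtag antibodies marked the source of the cells, but the labels do not tie hashtags to animals, so each group counted as 1 sample and no difference between groups was tested. Values below are UMIs summed over members and scaled to the members' total, as CPM. The 95% intervals of ratios and shares are exact and cover counting error only. A gene was called higher or lower in MASH members when its ratio was at least 2 or at most 0.5, the interval excluded 1, and both libraries together held at least 20 UMIs.

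The libraries held 52557786 to 105864367 UMIs. Members had a median of 2296.5 UMIs in MASH and 1547.5 in chow at 12 weeks, and of 2565 UMIs in MASH and 1560 in chow at 24 weeks. Their summed UMIs were 1994905, 1435875, 871016 and 650591 in the same order. Shares of members with a gene were therefore read after each member was thinned to 1000 UMIs, which left out 67, 166, 17 and 66 shallower members. The MASH library of 12 weeks was processed with an older Cell Ranger release than the others, and release and group cannot be told apart there. Between the other 3 libraries 487 to 732 cells had a barcode in common, against 498.93 to 738.58 if barcodes were drawn at random from the kit, and 0 or 1 member had one.

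The 4 genes of the rule chose the members, and their levels are a description. Stab2, the hyaluronan scavenger receptor stabilin-2, stood at 1146 CPM in MASH and 1378 CPM in chow members at 12 weeks, and at 1064 CPM in MASH and 1311 CPM in chow members at 24 weeks. Lyve1, another hyaluronan receptor, was not in the rule. It stood at 894 CPM in members of MASH livers and 984 CPM in members of chow livers at 12 weeks, and at 551 CPM in MASH and 544 CPM in chow at 24 weeks. T cells of the same libraries held 1.26 to 8.01 CPM of Lyve1, and Vwf-positive vascular endothelial cells, a set of 417 cells, held 29.99 to 113 CPM. The label therefore matched a marker that the rule did not use. The T cells of the 12-week libraries held no UMI of Stab2 or Clec4g, so their Lyve1 level is not independent of these genes.

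Members with a sum of exactly 3 numbered 37 in MASH and 59 in chow at 12 weeks, and 17 in MASH and 24 in chow at 24 weeks. Cells that met the other criteria with a sum of 2 numbered 33, 46, 7 and 16 in the same order. Lyve1 reached 240.0, 602, 349 and 103 CPM just inside the threshold and 35.3, 304, 67.6 and 48.5 CPM just outside it. The pan-leukocyte gene Ptprc removed the most cells. It was present in 64.8% of MASH and 61.8% of chow cells that met the positive genes at 12 weeks, and in 59.9% of MASH and 70.3% of chow cells at 24 weeks. Of the cells with a UMI of Cd3e or Trac, 6.56% to 23.6% met the positive genes.

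**Figure D1:**
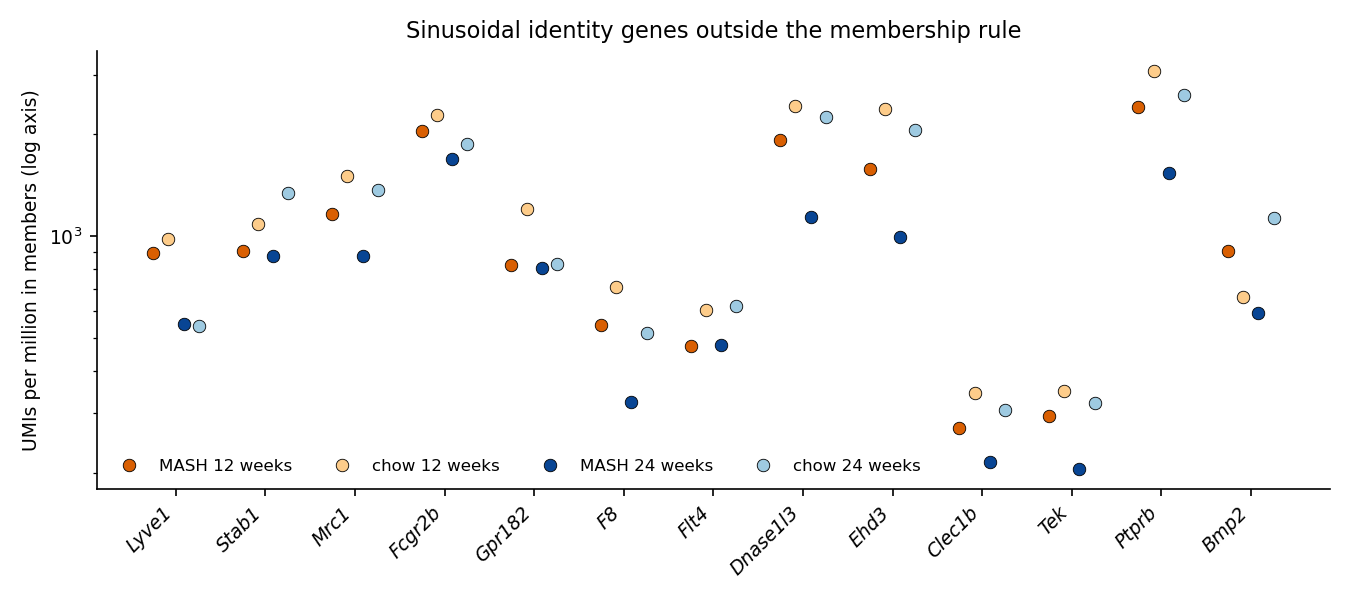
Level of sinusoidal genes outside the rule in members of the 4 libraries, in CPM on a log axis, 1 point per library and with no interval drawn. Ehd3 stood at 1576 CPM in MASH and 2367 CPM in chow members at 12 weeks and at 992 CPM in MASH and 2055 CPM in chow members at 24 weeks, and Lyve1 at 551 CPM in MASH and 544 CPM in chow members at 24 weeks.

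Some members carried RNA of other cell types. In 60 members of the MASH library and 31 of the chow library at 12 weeks, and in 21 of the MASH and 42 of the chow library at 24 weeks, marker genes of 1 other cell type made up over 1% of the UMIs. These members held 23.2% of the member UMIs in MASH and 5.86% in chow at 12 weeks, and 19.9% in MASH and 15.2% in chow at 24 weeks. The stellate and fibroblast list summed to 2035 CPM in MASH and 230 CPM in chow members at 12 weeks, and to 1743 CPM in MASH and 9.22 CPM in chow members at 24 weeks. The cholangiocyte list summed to 1923, 589, 1692 and 195 CPM and the erythroid list to 8960, 2745, 3906 and 12.3 CPM in the same order. Hepatocyte genes summed to 2065 CPM in MASH and 1093 CPM in chow at 12 weeks, but to 2416 CPM in MASH and 3820 CPM in chow at 24 weeks. Below, these are called the rich members. Values without them stand beside many of the calls that end, the medians that change sign and the ratios that move when they are left out. Not every such change is listed, and the part of these members beyond that was not tested.

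Members made up 3.77% of MASH and 4.48% of chow cells at 12 weeks, with intervals of 3.49% to 4.07% and 4.19% to 4.79%. At 24 weeks they made up 1.11% of MASH and 1.28% of chow cells, with intervals of 0.972% to 1.27% and 1.15% to 1.42%. The MASH share was 0.842 times the chow share at 12 weeks (95% interval 0.759 to 0.935) and 0.868 times at 24 weeks (0.730 to 1.03). At 24 weeks the interval included 1, and the ratio was 0.936 when the chow cells were limited to those with hashtags 1 to 4 and 0.601 when they were limited to hashtags 5 to 8. Of the cells that met the positive genes, 24.9% of 2614 in MASH and 25.9% of 3192 in chow were members at 12 weeks. At 24 weeks these were 24.9% of 892 in MASH and 16.7% of 2101 in chow. Over all cells the median depth was 3304 UMIs in MASH and 2096 in chow at 12 weeks, and 3464 and 2356 at 24 weeks. The rule used raw UMIs, and the part of the exclusions and of depth in the share ratios was not tested. These are shares of the suspension after digestion and the gradient, so cells in the liver and cells recovered cannot be told apart.

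Of 10386 genes compared at 12 weeks, 486 were called higher in MASH members, 4.68% of them, and 275 were called lower, 2.65%. Of 8466 genes compared at 24 weeks, 424 were called higher, 5.01%, and 301 lower, 3.56%. The median log2 ratio over all genes was -0.06 at 12 weeks and -0.05 at 24 weeks. Of 8414 genes compared at both weeks, 178 were higher at both, 2.12%, and 33 were lower at both, 0.392%. The comparisons at the 2 weeks share no library. Without the members rich in other-cell RNA, 205 genes were higher and 292 lower at 12 weeks, 304 higher and 256 lower at 24 weeks, and 67 higher and 30 lower at both.

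**Figure D2:**
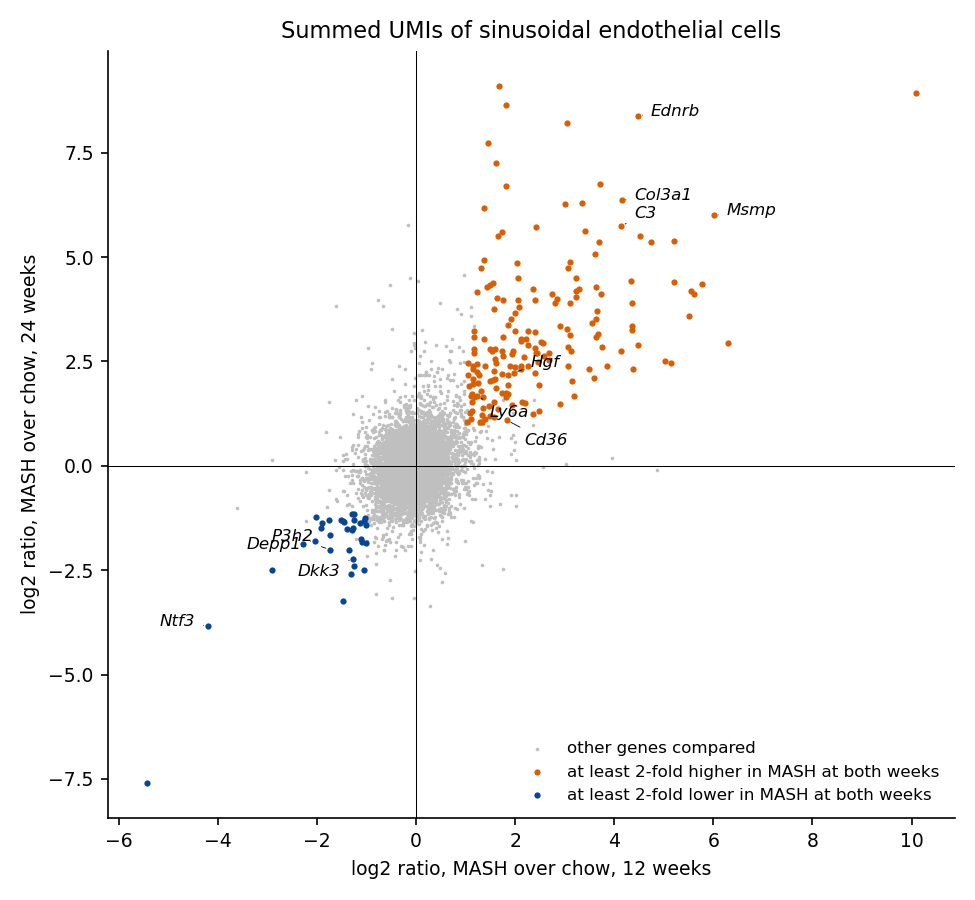
Log2 ratio of MASH over chow members at 24 weeks against that at 12 weeks, 1 point per gene compared at both weeks, with the 178 genes called higher and the 33 called lower at both weeks in colour. Ednrb lay farthest out at 24 weeks among the labelled genes, with ratios of 22.4 at 12 weeks and 335 at 24 weeks, and Ntf3 lay lowest of the labelled genes at 12 weeks, with a ratio of 0.0543.

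Ednrb, the endothelin B receptor, which binds endothelin and drives nitric oxide release in endothelium, was present in the largest share of thinned MASH members at both weeks among the 12 genes that the naming rule gave as higher. The gene lies on chromosome 14 at 103814625 to 103844402 on the minus strand (GRCm38). It stood at 234 CPM in MASH and 10.4 CPM in chow members at 12 weeks, and at 514 CPM in MASH and 1.54 CPM in chow members at 24 weeks. It rose 22.4-fold at 12 weeks (95% interval 13.4 to 40.4). At 24 weeks the ratio was 335, with an interval of 59.8 to 13246 because the chow members held 1 UMI. Without the members rich in other-cell RNA the ratios were 25.5 and 327.

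At 1000 UMIs, 15.6% of MASH and 1.06% of chow members had Ednrb at 12 weeks, and 35.1% of MASH and 0.352% of chow members at 24 weeks. Unthinned, these shares were 28.0%, 0.969%, 52.7% and 0.286%. T cells of the same libraries, which should lack it, had shares at 1000 UMIs of 1.29%, 0%, 1.45% and 0.0166%. Unthinned, T cells had it in 6.89%, 0.0712%, 4.79% and 0.266%, at median depths of 5485, 3790.5, 5052 and 4270 UMIs. T cells were deeper than members, so their thinned share may understate the free RNA in a member. The MASH members stood above both T cell readings. The 0 of 4201 chow T cells at 12 weeks limits cells with a UMI and not cells that express the gene. In Vwf-positive vascular cells Ednrb stood at 742 CPM in MASH and 187 CPM in chow at 12 weeks, and at 1109 CPM in MASH and 83.3 CPM in chow at 24 weeks. By hashtags with at least 30 members, MASH members ranged from 213 to 269 CPM over 3 hashtags at 12 weeks and stood at 748 CPM in 1 hashtag at 24 weeks. Chow members ranged from 0 to 28.4 CPM over 3 hashtags at 12 weeks and from 0 to 11.5 CPM over 7 at 24 weeks. Hashtags are not replicates here, and these values are a description.

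The ratio of Ednrb at 24 weeks depended on a handful of chow UMIs. It was at least 33.6 against chow cells of hashtags 1 to 4, which held no UMI and were set to 3 UMIs, 147 against those of hashtags 5 to 8, 91.0 when members could hold 1 UMI of an excluded gene, 724 when the rule was read at 1000 UMIs, and 936 on the mean share per cell. At 12 weeks it was 43.5 with a sum of at least 5 and 50.8 with the rule read at 1000 UMIs. Every one of these readings kept it higher in MASH members.

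Of the 178 genes higher at both weeks, 61 were also called without the members rich in other-cell RNA, and 11 of these were seen in at least 5% of thinned members of a MASH or chow library. They were Ednrb, Ly6a, Cd36, Hgf, Armcx4, Cd63, Rasd1, Ifit3, C1qb, C3 and Trf, a group singled out after values were seen. Ly6a encodes the surface antigen Sca-1, which marks many capillary and arterial endothelial cells. It stood at 1179 CPM in MASH and 500.04 CPM in chow members at 12 weeks, and at 1002 CPM in MASH and 317 CPM in chow members at 24 weeks. It rose 2.36-fold at 12 weeks (2.17 to 2.57) and 3.17-fold at 24 weeks (2.72 to 3.70). Thinned members with Ly6a were 54.9% in MASH and 22.0% in chow at 12 weeks, and 59.5% in MASH and 18.7% in chow at 24 weeks. T cells express Ly6a themselves, at shares of 22.9% to 32.5%, and the chow members lay below these.

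Cd36, a receptor for fatty acids and for oxidized lipoproteins, stood at 848 CPM in MASH and 237 CPM in chow members at 12 weeks, and at 598 CPM in MASH and 281 CPM in chow members at 24 weeks. It rose 3.58-fold (3.19 to 4.04) and 2.13-fold (1.79 to 2.53). Its thinned shares were 57.5% in MASH and 18.8% in chow members at 12 weeks, and 47.3% in MASH and 20.1% in chow members at 24 weeks. T cells had it in 6.62%, 1.95%, 2.60% and 0.998% of cells in the same order. Unthinned, it was in 74.9%, 26.6%, 75.7% and 30.3% of members and in 22.7%, 8.21%, 10.6% and 5.15% of T cells. With the rule read at 1000 UMIs the ratio at 24 weeks was 3.56. Cd36 was also higher in MASH than in chow in vascular cells. They held 318 CPM in MASH and 99.8 CPM in chow at 12 weeks, and 358 CPM in MASH and 110 CPM in chow at 24 weeks.

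Hgf encodes hepatocyte growth factor, a mitogen for hepatocytes. It stood at 90.2 CPM in MASH and 22.98 CPM in chow members at 12 weeks, and at 79.2 CPM in MASH and 16.9 CPM in chow members at 24 weeks. It rose 3.93-fold (2.70 to 5.88) and 4.69-fold (2.46 to 9.82), and the thinned shares were 10.8%, 2.27%, 8.29% and 2.46%, against 0.262% to 0.766% of T cells. Against chow cells of hashtags 1 to 4 the ratio at 24 weeks was 7.77. Vascular cells held less, with 16.3 CPM in MASH and 2.56 CPM in chow at 12 weeks, and 39.5 CPM in MASH and 3.33 CPM in chow at 24 weeks. Armcx4, of the armadillo repeat family, rose 4.54-fold and 6.08-fold, to 50.6 CPM in MASH against 11.1 CPM in chow members at 12 weeks and to 65.4 CPM in MASH against 10.8 CPM in chow members at 24 weeks. Rasd1, a small GTPase induced by glucocorticoids, rose 2.54-fold and 3.15-fold.

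C3, C1qb, Cd63, Trf and Ifit3 made up the rest of the group. C3, the central complement component, stood at 1258 CPM in MASH and 71.0 CPM in chow members at 12 weeks and at 1400 CPM in MASH and 26.1 CPM in chow members at 24 weeks. The rich members held 69.7% of its UMIs in the MASH library of 12 weeks and 26.4% in that of 24 weeks, and its ratios of 17.7 at 12 weeks and 53.6 at 24 weeks were 8.94 and 236 without them. The chow library of 24 weeks held 17 UMIs of C3, 14 of them in rich members, and the interval of the 236 was 80.7 to 1149. In the MASH library of 24 weeks 1 member held 442 of 1219 UMIs. Stellate cells and fibroblasts of the MASH library of 12 weeks held 7296 CPM of C3. C1qb, a gene of macrophages, stood at 52.1 CPM in MASH and 6.96 CPM in chow members at 12 weeks, and the macrophages of the MASH library at 4662 CPM. Its ratio of 7.49 at 12 weeks was 8.21 without the rich members. The rule limited the C1q genes to fewer than 5 UMIs per member, so the values of C1qb are not independent of it. At 12 weeks 168 MASH and 24 chow cells that met the positive genes held 5 or more. Cd63, a membrane protein of late endosomes, rose 3.62-fold and 10.3-fold, and the rich members held 52.8% and 43.5% of its UMIs in the MASH libraries of 12 and 24 weeks. Without them its ratios were 2.76 and 11.1. Trf, the transferrin gene, rose 7.52-fold and 2.81-fold, and these ratios were 3.02 and 6.17 without the rich members. The ratios of Ifit3, an interferon-induced gene, were 2.22 and 4.21 with them and 2.67 and 2.98 without them.

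By the rule that ranked genes by the smaller of their 2 changes, the 12 named higher genes were Msmp, Ednrb, Col6a1, Col3a1, C3, Rhou, C1s1, Ptgis, Angptl4, Snhg18, Gpc3 and Aldh1a2. Apart from Ednrb and C3, each was present in under 3% of thinned members of every library. Of the 12, 4 lost a call without the rich members. Msmp, first by this rank, had ratios of 64.8 and 63.9 in all members but 2.65 and 1.19 without them, and was then called at neither week. Snhg18 was called at neither week, Rhou not at 24 weeks and Aldh1a2 not at 12 weeks. C1s1, a complement protease, kept its calls, with ratios of 13.0 and 107 in all members and of 7.84 and at least 15.8 without the rich members. Stellate cells and fibroblasts held more of most of them than members did. Col3a1, a fibrillar collagen chain made by fibroblasts, stood at 409 CPM in MASH and 22.98 CPM in chow members at 12 weeks, and at 381 CPM in MASH members against no UMI in chow members at 24 weeks. Its ratio was 17.8 at 12 weeks and at least 82.7-fold at 24 weeks, with the chow library set to 3 UMIs. Without the members rich in other-cell RNA it was 3.72 at 12 weeks and at least 31.6-fold at 24 weeks. Ptgis, the prostacyclin synthase, rose 13.0-fold at 12 weeks and at least 41.3-fold at 24 weeks, and it was present in 1.37% and 1.46% of thinned MASH members. The rich members held 67.8% of its UMIs in the MASH library of 12 weeks, and its ratios without them were 5.12 and at least 24.0. Saa3, an acute-phase serum amyloid gene, was left out by the rule because its level in members was under 10% of that in another cell class of a MASH library. It stood at 761 CPM in MASH and 0.696 CPM in chow members at 12 weeks, and at 2254 CPM in MASH members against no UMI in chow members at 24 weeks, with 4.97% and 3.41% of thinned MASH members carrying it. The rich members held 52.7% and 30.8% of its UMIs in the MASH libraries of 12 and 24 weeks. In the MASH library of 24 weeks 1 member held 707 of 1963 UMIs. Rhou, a small GTPase, had a ratio of 20.5 at 12 weeks that turned to 0.577 when the rule was read at 1000 UMIs.

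The 12 named lower genes were Ntf3, Plppr5, Depp1, P3h2, Ccn4, Ang, Dkk3, Tspan13, P2ry1, Rasa4, Colgalt2 and Tdrp. Ntf3 encodes the neurotrophin NT-3, a secreted growth factor. It stood at 2.01 CPM in MASH and 36.9 CPM in chow members at 12 weeks, and no UMI was seen in MASH members against 49.2 CPM in chow members at 24 weeks. The ratio was 0.0543 at 12 weeks (0.0143 to 0.147) and at most 0.0700 at 24 weeks, with the MASH library set to 3 UMIs. At 1000 UMIs it was present in 0.172% of MASH and 4.55% of chow members at 12 weeks, and in none of 205 MASH members and 3.87% of chow members at 24 weeks. T cells had it in 0% to 0.4999% of cells. Vascular cells went the same way, on 5 to 17 UMIs per library. They held 11.8 CPM in MASH and 43.5 CPM in chow at 12 weeks, and 14.1 CPM in MASH and 33.3 CPM in chow at 24 weeks. Hashtag values ran from 1.22 to 4.68 CPM in MASH and from 18.9 to 51.1 CPM in chow at 12 weeks, and the MASH hashtag at 24 weeks held 0 CPM against 37.1 to 66.5 CPM over the 7 chow hashtags.

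Dkk3, a secreted protein of the Dickkopf family of Wnt modulators, stood at 20.6 CPM in MASH and 49.4 CPM in chow members at 12 weeks, and at 13.8 CPM in MASH and 64.6 CPM in chow members at 24 weeks. It fell to 0.416 and 0.213 of the chow level, but the chow hashtags of 24 weeks ranged from 0 to 138 CPM. Plppr5, a lipid phosphatase-related membrane protein, fell to 0.206 and 0.272. P3h2, which hydroxylates proline in basement membrane collagen, fell to 0.2999 and 0.249. Ccn4, a matricellular protein induced by Wnt signals, fell to 0.365 and 0.394. P2ry1, a receptor for extracellular ADP, fell to 0.423 and 0.405. Colgalt2, which adds galactose to collagen, fell to 0.420 and 0.448. It was called at neither week without the rich members, with ratios of 0.515 and 0.558, and its ratio at 24 weeks was 1.17 with the rule read at 1000 UMIs. Depp1, a gene induced by FOXO factors, fell to 0.242 and 0.288, with 69.0% of its UMIs in the MASH library of 24 weeks in the rich members. Without them its ratios were 0.180 and 0.104.

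Signals sent to hepatocytes and neighbouring cells were compared as a list of 14 Wnt, BMP and growth factor genes. One was higher and 2 were lower at 12 weeks, with a median log2 ratio of -0.25, against -0.06 over all genes. At 24 weeks 3 were higher and 4 lower, with a median of -0.82, against -0.05. For these and the later lists, the shares called over all genes were 4.68% higher and 2.65% lower at 12 weeks and 5.01% higher and 3.56% lower at 24 weeks. Hgf was the gene higher at both weeks. Rspo3, an enhancer of Wnt signals that maintains pericentral hepatocytes, stood at 234 CPM in MASH and 409 CPM in chow members at 12 weeks, a ratio of 0.573 (0.506 to 0.648). At 24 weeks it stood at 188 CPM in MASH and 795 CPM in chow members and fell to 0.237 of the chow level (0.198 to 0.283). Thinned members with Rspo3 were 8.40% in MASH and 13.0% in chow at 12 weeks, and 6.83% in MASH and 21.1% in chow at 24 weeks. Vascular cells, which express it strongly, held 3309 to 4588 CPM, and T cells had it in 0.460% to 1.42% of thinned cells. The ratio at 24 weeks was 0.474 with the rule read at 1000 UMIs, 0.369 in cells with exactly 1 hashtag and 0.468 against chow hashtags 1 to 4.

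**Figure D3:**
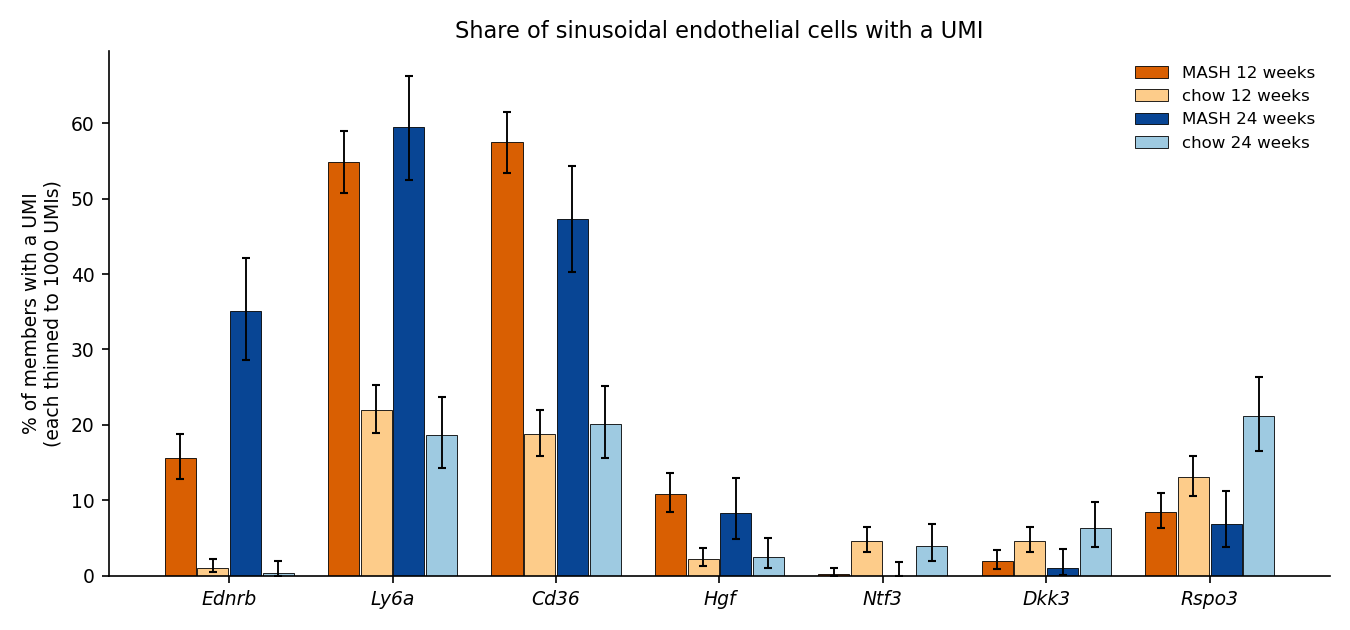
Percentage of members with a UMI of each gene after thinning to 1000 UMIs, by library, with exact 95% intervals. Ednrb was present in 15.6% of MASH and 1.06% of chow members at 12 weeks and in 35.1% of MASH and 0.352% of chow members at 24 weeks, and Ntf3 in 0.172% of MASH and 4.55% of chow members at 12 weeks.

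Wnt2, the main Wnt ligand of pericentral sinusoidal cells, stood at 320 CPM in both MASH and chow members at 12 weeks, with a ratio of 0.998 (0.884 to 1.13). At 24 weeks it stood at 157 CPM in MASH and 337 CPM in chow members, and it fell to 0.467 (0.375 to 0.581), which was 0.510 and no longer a call without the rich members. The ratio was 0.882 against chow cells of hashtags 1 to 4, and the chow hashtags of 24 weeks ran from 78.0 to 495 CPM, on both sides of the 162 CPM of the MASH hashtag. Bmp6, which signals iron load to hepatocytes, stood at 82.2 CPM in MASH and 147 CPM in chow members at 12 weeks, and at 56.3 CPM in MASH and 144 CPM in chow members at 24 weeks. Its ratios were 0.559 and 0.389, and only the second met the call. Bmp2, which has the same role, had ratios of 1.37 and 0.527. Angpt2, an antagonist of the Tie2 receptor released by activated endothelium, rose 2.46-fold at 24 weeks, and Ccn1, a matricellular protein, rose 3.04-fold. Pdgfb, a mitogen for stellate cells, fell to 0.215 at 12 weeks and had a ratio of 0.896 at 24 weeks.

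**Figure D4:**
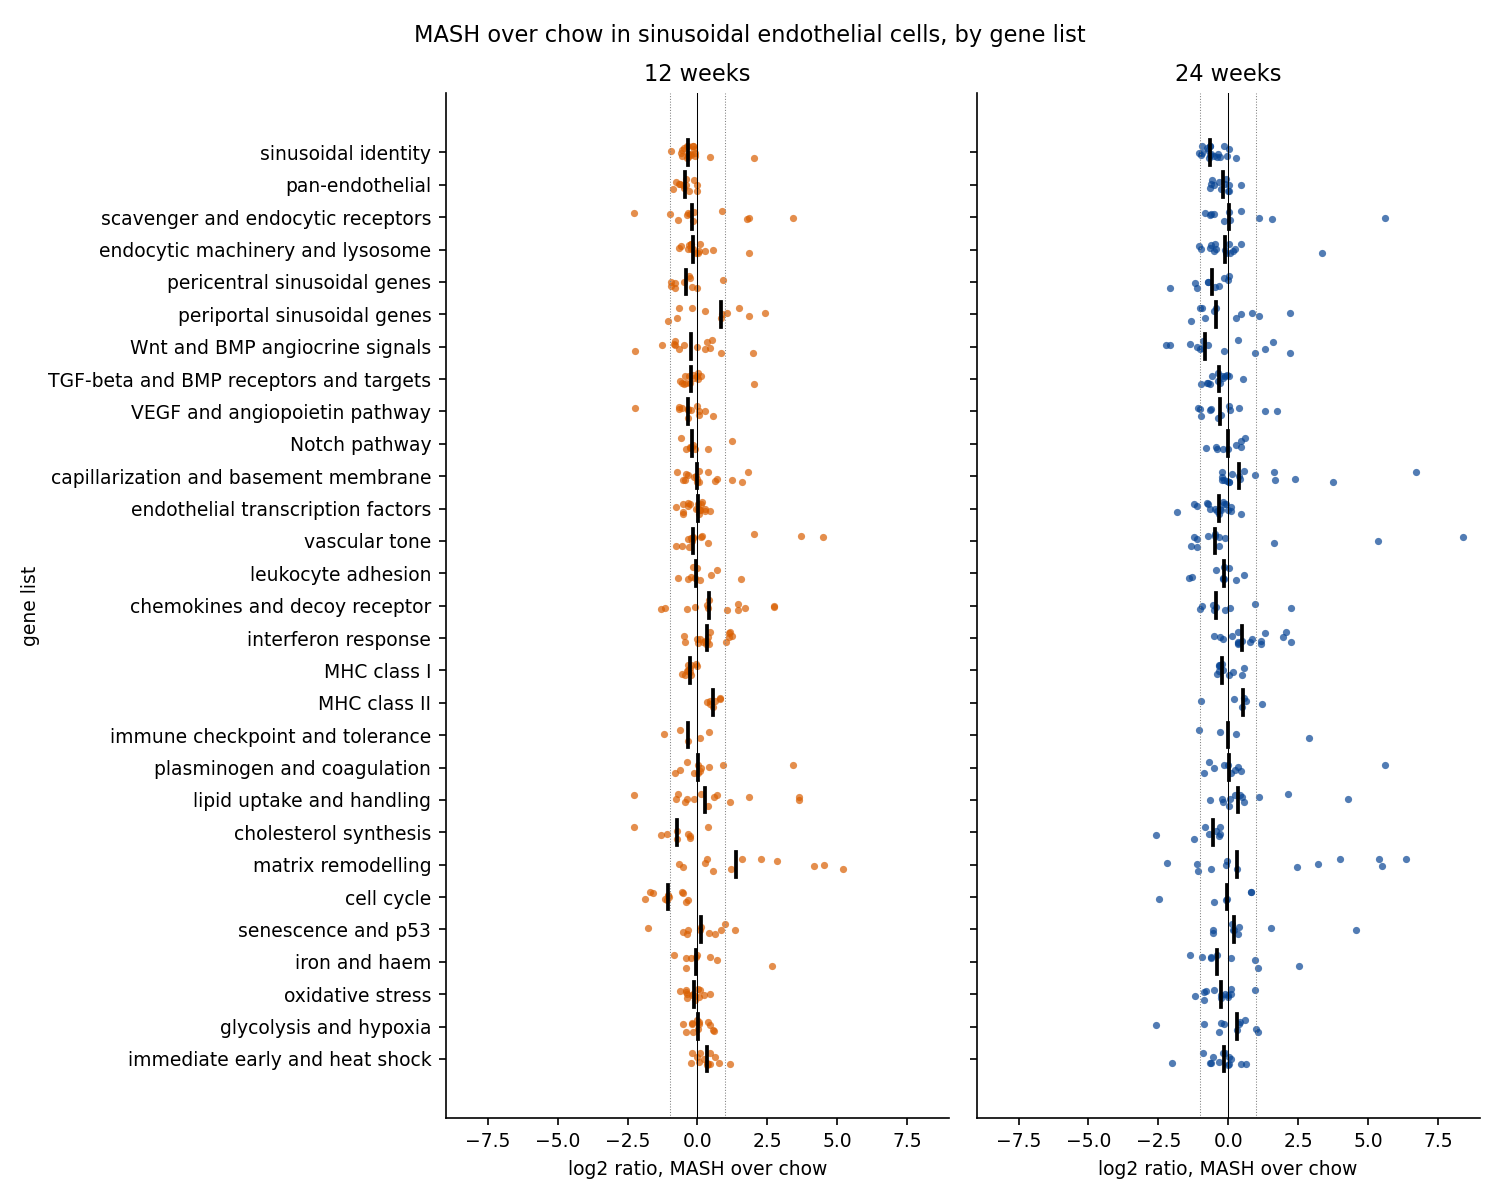
Log2 ratio of MASH over chow members for every compared gene of the fixed lists at 12 and 24 weeks, with the median of each list marked. The medians ran from -1.05 for cell cycle genes to 1.39 for matrix remodelling genes at 12 weeks, and the median over all genes was -0.06 at 12 weeks and -0.05 at 24 weeks.

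Genes that mark the sinusoidal state stood mostly below the chow level in MASH members, and few by a factor of 2. Of 20 identity genes compared at 12 weeks, 1 was higher and none lower, with a median log2 ratio of -0.34. Of 19 at 24 weeks, none was higher and 1 lower, with a median of -0.64. Ratios were below 1 for 18 of 20 genes at 12 weeks and for 17 of 19 at 24 weeks, with intervals below 1 for 16 at each week. Without the rich members no identity gene was called at either week and the medians were -0.10 and -0.51, and with the rule read at 1000 UMIs the median at 24 weeks was 0.04. Since the rule selects on 4 sinusoidal genes, the levels of related genes are not independent of it.

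Ehd3, a membrane-bending protein of the endocytic pathway, stood at 1576 CPM in MASH and 2367 CPM in chow members at 12 weeks, and at 992 CPM in MASH and 2055 CPM in chow members at 24 weeks. Its ratio was 0.666 at 12 weeks and it fell to 0.483 at 24 weeks, which was 0.758 with the rule read at 1000 UMIs and 0.518 without the rich members. Dnase1l3, a secreted nuclease that clears DNA from dying cells, had ratios of 0.795 and 0.507, and the second was 0.810 with the rule read at 1000 UMIs. Mrc1, the mannose receptor, stood at 1166 CPM in MASH and 1503 CPM in chow members at 12 weeks, and at 876 CPM in MASH and 1365 CPM in chow members at 24 weeks. Fcgr2b, the Fc receptor that removes immune complexes, had ratios of 0.895 and 0.905. Cd209a, a C-type lectin, rose 4.08-fold at 12 weeks from few UMIs, to 8.52 CPM in MASH against 2.09 CPM in chow members, and was not called without the rich members.

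Of 12 scavenger and endocytic receptor genes, 3 were higher and 1 lower at 12 weeks, with a median log2 ratio of -0.21, or 0.01 without the rich members. Of 11 at 24 weeks, 2 were higher and none lower, with a median of 0.02. Cd36 and Lrp1, the large lipoprotein and protease receptor, were higher at both weeks. Lrp1 stood at 51.6 CPM in MASH and 4.88 CPM in chow members at 12 weeks, and at 75.8 CPM in MASH and 1.54 CPM in chow members at 24 weeks. It was present in 1.20% and 1.95% of thinned MASH members at 12 and 24 weeks, and the rich members held 75.7% and 37.9% of its UMIs there. Its ratios of 10.6 and 49.3 were 7.35 and 32.4 without them. Msr1, the class A scavenger receptor, had ratios of 1.84 and 1.38. Among 15 genes of the endocytic machinery and lysosome, 1 was higher and none lower at 12 weeks, and 1 was higher and 1 lower at 24 weeks, with medians of -0.15 and -0.10. Without the rich members none was lower at 24 weeks. No pan-endothelial gene of 12 was called in either direction at either week, with medians of -0.45 and -0.17. Ratios were below 1 for 12 of 12 genes at 12 weeks, with intervals below 1 for 10. At 24 weeks these numbers were 9 and 6. Without the rich members the medians were -0.26 and -0.17. The identity genes above had a median of -0.34 at 12 weeks, or -0.10 without the rich members, so the fall was not particular to them. Pecam1, an adhesion molecule of all endothelium, stood at 507 CPM in MASH and 515 CPM in chow members at 12 weeks, and at 545 CPM in MASH and 540.0 CPM in chow members at 24 weeks.

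Capillarization and basement membrane genes were the group in which Ly6a stood. Of 17 compared, 3 were higher and none lower at 12 weeks, with a median log2 ratio of -0.02, or 0.18 without the rich members, and 5 were higher and none lower at 24 weeks, with a median of 0.39. Cd34, a sialomucin of continuous capillaries, stood at 58.1 CPM in MASH and 19.5 CPM in chow members at 12 weeks, and at 166 CPM in MASH and 12.3 CPM in chow members at 24 weeks. It rose 2.98-fold and 13.5-fold, and these ratios were 1.93 at 12 weeks without doublets and between 5.44 and 47.7 over all readings at 24 weeks. Members rich in other-cell RNA held 47.4% and 25.5% of its UMIs in the MASH libraries of 12 and 24 weeks. Ly6c1, another antigen of capillary endothelium, stood at 27.1 CPM in MASH and 7.66 CPM in chow members at 12 weeks, and at 161 CPM in MASH and 1.54 CPM in chow members at 24 weeks, where chow held 1 UMI. Cav1, the caveolin of endothelial pits, rose 3.15-fold at 24 weeks, and Col15a1, a basement membrane collagen, rose at least 5.23-fold, with too few UMIs for a call without the rich members.

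Plvap, which forms the diaphragm of fenestrae in other vascular beds, stood at 223 CPM in MASH and 370 CPM in chow members at 12 weeks, and at 394 CPM in MASH and 457 CPM in chow members at 24 weeks. Its ratios of 0.603 and 0.863 were not calls. Col4a1, a basement membrane collagen chain, had ratios of 0.972 and 1.31, and Col4a2 of 1.04 and 1.49. The vascular endothelial marker list summed to 358 CPM in MASH and 159.5 CPM in chow members at 12 weeks, and to 596 CPM in MASH and 105 CPM in chow members at 24 weeks. It held 7 of 10, 8 of 10, 7 of 10 and 4 of 10 genes with a UMI in the same order, and Vwf, which the rule excluded, and Cytl1 were at 0 in all 4 libraries.

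Flow-responsive and identity transcription factors were compared as a list of 18 genes. None was called at 12 weeks, with a median log2 ratio of 0.03. At 24 weeks none was higher and 3 were lower, with a median of -0.31. Klf2, the factor induced by laminar flow that keeps endothelium quiescent, stood at 724 CPM in MASH and 910.3 CPM in chow members at 12 weeks, and at 608 CPM in MASH and 1331 CPM in chow members at 24 weeks. Its ratio was 0.795 at 12 weeks and it fell to 0.457 at 24 weeks, where the 7 chow hashtags ran from 531 to 1726 CPM and the MASH hashtag stood at 496 CPM. Klf4, a factor with a similar role, had a ratio of 1.10 at 12 weeks and fell to 0.427 at 24 weeks. Tfec, of the microphthalmia factor family, had a ratio of 0.694 at 12 weeks and fell to 0.284 at 24 weeks. Gata4, which specifies sinusoidal endothelium, had ratios of 0.825 and 0.612, neither of them a call.

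Of 14 vascular tone genes, 3 were higher and none lower at 12 weeks, with a median log2 ratio of -0.15. Without the rich members 2 were higher there. Of 13 at 24 weeks, 3 were higher and 3 lower, with a median of -0.45. Nos3, the endothelial nitric oxide synthase, stood at 104 CPM in MASH and 115 CPM in chow members at 12 weeks, and at 145 CPM in MASH and 158 CPM in chow members at 24 weeks, with ratios of 0.903 and 0.914. Edn1, which encodes the ligand of Ednrb, stood at 9.52 CPM in MASH and 11.8 CPM in chow members at 12 weeks, and at 9.18 CPM in MASH and 19.98 CPM in chow members at 24 weeks, and both intervals included 1. Adm, the vasodilator adrenomedullin, had a ratio of 0.685 at 12 weeks and fell to 0.394 at 24 weeks.

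Receptors and inhibitors of VEGF and angiopoietin gave 0 higher and 1 lower of 13 genes at 12 weeks, and 2 higher and 1 lower of 12 at 24 weeks, with medians of -0.33 and -0.31. Flt1, the decoy VEGF receptor, stood at 414 CPM in MASH and 658 CPM in chow members at 12 weeks, and at 315 CPM in MASH and 629 CPM in chow members at 24 weeks. Adamts1, a metalloprotease that inhibits angiogenesis, had a ratio of 0.626 and then fell to 0.472. TGF-beta and BMP receptors and targets gave 1 higher of 14 genes at 12 weeks and none at 24 weeks, none lower, with medians of -0.22 and -0.32. Among 9 Notch genes, 1 was higher at 12 weeks and none at 24 weeks, none was lower, and the medians were -0.18 and -0.01. Without the rich members the TGF-beta and Notch lists held no call, and of the VEGF and angiopoietin list 1 gene was higher and 2 were lower at 24 weeks.

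Adhesion molecules for leukocytes were not called higher at 24 weeks in MASH members. Of 10 such genes, 1 was higher and none lower at 12 weeks, with a median log2 ratio of -0.05, and none was higher and 2 were lower at 24 weeks, with a median of -0.16. Icam1, a ligand of leukocyte integrins, stood at 94.7 CPM in MASH and 99.6 CPM in chow members at 12 weeks, and at 116 CPM in MASH and 306 CPM in chow members at 24 weeks. Vcam1, another such ligand, stood at 103 CPM in MASH and 122 CPM in chow members at 12 weeks, and at 117 CPM in MASH and 287 CPM in chow members at 24 weeks. They fell to 0.379 and 0.407 of the chow level at 24 weeks, and these ratios were 0.784 and 0.919 against chow cells of hashtags 1 to 4. Cd44, the hyaluronan receptor, was the gene called higher at 12 weeks, 2.91-fold, and its ratio was 1.53 and no longer a call without the rich members, where the list median was 0.08.

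Chemokine genes gave 6 higher and 2 lower of 13 at 12 weeks, with a median log2 ratio of 0.42, and 1 higher and 1 lower of 9 at 24 weeks, with a median of -0.42. The counts without the rich members were 3 higher and 1 lower at 12 weeks, and 1 higher and 2 lower at 24 weeks. Cxcl10, which draws T cells, stood at 178 CPM in MASH and 86.4 CPM in chow members at 12 weeks and rose 2.06-fold, and it stood at 142 CPM in MASH and 201 CPM in chow members at 24 weeks, a ratio of 0.707 that became a lower call of 0.473 without the rich members. Cxcl9, of the same receptor, had ratios of 1.29 and 1.05. Ackr3, the scavenging receptor of Cxcl12, rose 4.73-fold at 24 weeks. The monocyte and neutrophil list summed to 279 CPM in MASH and 129 CPM in chow members at 12 weeks, and to 499 CPM in MASH and 1448 CPM in chow members at 24 weeks. Without the rich members it summed to 263 CPM in MASH and 114 CPM in chow members at 12 weeks, and to 373 CPM in MASH and 196 CPM in chow members at 24 weeks. Beyond that, its part in the chemokine values was not tested.

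Interferon response genes gave 5 higher of 17 at 12 weeks and 6 higher of 17 at 24 weeks, none lower, with medians of 0.34 and 0.48 on the log2 scale. Over all genes 4.68% and 5.01% were called higher. Ifit3, Irf7 and Gbp2 were higher at both weeks. Ifit3, an antiviral effector, stood at 54.1 CPM in MASH and 24.4 CPM in chow members at 12 weeks, and at 90.7 CPM in MASH and 21.5 CPM in chow members at 24 weeks. Irf7, a regulator of type I interferon genes, rose 2.20-fold and 2.50-fold. Gbp2, a guanylate-binding protein, rose 2.21-fold and 3.88-fold, and the first ratio was 1.65 and no longer a call without the rich members. Bst2, the tetherin gene and the most abundant of the list, had ratios of 0.720 and 0.699.

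No MHC class I gene of 11 was called at either week, with medians of -0.27 and -0.23. Of 7 MHC class II genes none was called at 12 weeks, and of 6 at 24 weeks 1 was higher, with medians of 0.56 and 0.53. H2-Eb1, a class II chain, rose 2.30-fold at 24 weeks. Cd74, the class II invariant chain, stood at 512 CPM in MASH and 371 CPM in chow members at 12 weeks, and at 719.9 CPM in MASH and 621 CPM in chow members at 24 weeks. The macrophage list, whose cells express class II, summed to 101 CPM in MASH and 17.4 CPM in chow members at 12 weeks, and to 127 CPM in MASH and 12.3 CPM in chow members at 24 weeks. The B cell list summed to 91.2, 137, 68.9 and 195 CPM in the same order. Their part in the class II values was not tested. Of 5 checkpoint and tolerance genes none was higher and 1 lower at 12 weeks, and of 4 at 24 weeks 1 was higher and 1 lower.

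Genes of lipid handling and of cholesterol synthesis formed the next lists. Of 14 lipid genes 4 were higher and 1 lower at 12 weeks, with a median log2 ratio of 0.26, and of 12 at 24 weeks 3 were higher and none lower, with a median of 0.34. Without the rich members 2 were higher at 24 weeks. Gpihbp1, the anchor of lipoprotein lipase on capillary walls, stood at 2172 CPM in MASH and 3716 CPM in chow members at 12 weeks, and at 1991 CPM in MASH and 3094 CPM in chow members at 24 weeks, with ratios of 0.585 and 0.643. Abca1, which exports cholesterol, rose 2.25-fold at 12 weeks and had a ratio of 1.20 at 24 weeks. Fabp4, a fatty acid carrier of endothelium, had ratios of 0.924 and 0.855.

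Cholesterol synthesis and uptake genes gave 3 lower of 9 at 12 weeks and 2 lower of 8 at 24 weeks, none higher, with medians of -0.73 and -0.56. Idi1, an isomerase of the mevalonate pathway, stood at 7.02 CPM in MASH and 17.4 CPM in chow members at 12 weeks, and at 6.89 CPM in MASH and 41.5 CPM in chow members at 24 weeks. It fell to 0.403 and 0.166 of the chow level. Insig1, a sterol-induced retention protein, fell to 0.469 at 12 weeks, and Fdps, a synthase of the same pathway, fell to 0.430 at 24 weeks. Leaving out the rich members, 2 genes were lower at 12 weeks and none at 24 weeks, with medians of -0.77 and -0.39. Idi1 then had too few UMIs for a call at 24 weeks, Fdps had a ratio of 0.558 there and Insig1 one of 0.557 at 12 weeks.

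Matrix remodelling genes gave 7 higher and none lower of 12 at 12 weeks, with a median log2 ratio of 1.39, and 6 higher and 3 lower of 13 at 24 weeks, with a median of 0.33. Without the members rich in other-cell RNA the medians were 0.66 and 1.29. Then 5 were higher at 12 weeks, and 6 were higher and 2 lower at 24 weeks. Fn1, fibronectin, stood at 309 CPM in MASH and 8.36 CPM in chow members at 12 weeks, and at 256 CPM in MASH and 6.15 CPM in chow members at 24 weeks. The rich members held 76.3% of its UMIs in the MASH library of 12 weeks, where 1 member held 257 of 617 UMIs, and 48.4% in that of 24 weeks. Its ratios of 37.0 and 41.6 were 14.3 and at least 30.3 without them. All 4 chow UMIs of 24 weeks lay in the rich members, so that library was set to 3 UMIs. Spp1, osteopontin, a gene of cholangiocytes and activated cells, stood at 1478 CPM in MASH and 306 CPM in chow members at 12 weeks, and its ratio of 4.82 became 1.66 without the rich members. At 24 weeks its ratio of 9.36 became at least 51.4. All 96 chow UMIs lay in the rich members there, so the chow library was set to 3 UMIs. Timp2, an inhibitor of metalloproteases, had a ratio of 3.04 at 12 weeks that became 1.52 without them. Timp3, an inhibitor bound to the matrix, was lower at 24 weeks, at 635 CPM in MASH and 1389.5 CPM in chow members, with a ratio of 0.457. The stellate list stood beside all of these, with 9 of 9, 9 of 9, 8 of 9 and 2 of 9 genes present in members, and its part in the matrix values was not tested beyond that removal.

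Cell cycle genes gave 8 lower and none higher of 12 at 12 weeks, with a median log2 ratio of -1.05, and 1 lower of 6 at 24 weeks, with a median of -0.05. With the rich members left out 5 were lower at 12 weeks, and the medians were -0.99 and -0.49. Ccnd1, cyclin D1, stood at 246 CPM in MASH and 509 CPM in chow members at 12 weeks and fell to 0.483, and at 24 weeks it stood at 287 CPM in MASH and 409 CPM in chow members. Mki67, a marker of cycling cells, stood at 11.5 CPM in MASH and 24.4 CPM in chow members at 12 weeks and fell to 0.473, which was 0.519 and no longer a call without the rich members. Top2a, the topoisomerase of dividing cells, fell to 0.450 there. Of 11 senescence and p53 genes 1 was lower at 12 weeks, and of 9 at 24 weeks 2 were higher, with medians of 0.13 and 0.20, or -0.09 and 0.26 without the rich members. Cdkn2a, which encodes the p16 and p19 cell cycle inhibitors, stood at 7.02 CPM in MASH and 23.7 CPM in chow members at 12 weeks, and at 57.4 CPM in MASH and 19.98 CPM in chow members at 24 weeks. It was lower at 12 weeks, with a ratio of 0.296, and higher at 24 weeks, with a ratio of 2.87.

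Plasminogen and coagulation genes, among which the series' own target stands, gave 1 higher and none lower of 11 at 12 weeks and of 10 at 24 weeks, with medians of 0.00 and 0.04. Without the rich members 2 were higher at 12 weeks and 1 at 24 weeks, and the medians were -0.05 and -0.01. The gene called at both weeks was Lrp1, of which the rich members held 75.7% and 37.9% of the UMIs in the MASH libraries of 12 and 24 weeks. Plaur, the urokinase receptor, stood at 32.6 CPM in MASH and 24.4 CPM in chow members at 12 weeks, with a ratio of 1.34 (0.873 to 2.08), and at 52.8 CPM in MASH and 41.5 CPM in chow members at 24 weeks, with a ratio of 1.27 (0.775 to 2.13). Both intervals included 1 and also values up to 2.08 and 2.13. At 1000 UMIs Plaur was present in 3.26% of MASH and 1.82% of chow members at 12 weeks, and in 4.39% of MASH and 3.17% of chow members at 24 weeks. T cells had it in 3.12%, 2.26%, 2.21% and 2.08% of cells in the same order, so the thinned member shares lay near that level. Unthinned, 7.85%, 3.63%, 12.6% and 6.00% of members had Plaur, against 15.9%, 9.14%, 14.2% and 10.8% of the deeper T cells. Plau, the protease that binds it, had ratios of 0.576 and 0.556.

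Lists of iron, oxidative stress, glycolysis and immediate early genes held few calls. Iron and haem genes gave 1 higher of 9 at 12 weeks and 1 higher and 1 lower of 9 at 24 weeks, with medians of -0.05 and -0.39. Fth1, the ferritin heavy chain, had ratios of 1.61 and 1.96, and they ranged from 0.745 to 1.68 and from 0.967 to 2.26 over the other readings. Oxidative stress genes gave 1 lower of 13 at 24 weeks and no other call, with medians of -0.11 and -0.26. Glycolysis and hypoxia genes gave no call of 13 at 12 weeks and 2 higher and 1 lower of 11 at 24 weeks, with medians of 0.03 and 0.33. Immediate early and heat shock genes, which respond to tissue handling, gave 1 higher of 14 at 12 weeks and 1 lower of 14 at 24 weeks, with medians of 0.33 and -0.14. Without the rich members none was higher at 12 weeks and 2 were lower at 24 weeks, with medians of -0.08 and -0.31, and 1 glycolysis gene was higher at 24 weeks. Nr4a1, an immediate early nuclear receptor, was the lower one, at 37.9 CPM in MASH and 152 CPM in chow members.

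Position in the lobule was read from the pericentral landmarks Wnt2, Wnt9b, Rspo3, Kit and Cdh13 and the periportal landmarks Efnb2, Ltbp4, Ntn4, Dll4 and Adam23, and other zoned genes were kept out of that reading. Pericentral genes gave no call of 10 at 12 weeks and 3 lower of 10 at 24 weeks, Wnt2, Rspo3 and Cdh13, with medians of -0.39 and -0.58. Periportal genes gave 4 higher and 1 lower of 11 at 12 weeks and 2 higher and 1 lower at 24 weeks, with medians of 0.84 and -0.42. Without the rich members the pericentral list held 1 higher gene at 12 weeks and 1 lower gene, Rspo3, at 24 weeks, and the periportal medians were 0.50 and 0.14, so the sign of the second turned. Adam23, a membrane protein of the periportal list, stood at 436 CPM in MASH and 210 CPM in chow members at 12 weeks, a 2.08-fold rise, and at 342 CPM in MASH and 188 CPM in chow members at 24 weeks, a ratio of 1.82. Chst2, a sulfotransferase, fell to 0.483 and 0.397, and the first was 0.562 without the rich members. At 1000 UMIs, 16.3% of MASH and 22.9% of chow members at 12 weeks carried pericentral landmarks only, with intervals of 13.4% to 19.5% and 19.7% to 26.3%. At 24 weeks this held for 18.0% of MASH and 26.4% of chow members, with intervals of 13.0% to 24.0% and 21.4% to 31.9%. Members with periportal landmarks only were 42.9% in MASH and 38.6% in chow at 12 weeks, and 40.0% in MASH and 32.7% in chow at 24 weeks. Unthinned and without Adam23 as a landmark, 89 of 650 MASH and 161 of 826 chow members were pericentral only at 12 weeks. At 24 weeks these were 41 of 222 MASH and 65 of 350 chow members. Adam23 and some pericentral landmarks differed between the diets themselves, so landmark level and position cannot be told apart in these shares.

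Lyve1 and Cd36, neither used as a landmark, were zoned in chow members and less so in MASH members. Lyve1 in members with only pericentral landmarks was 0.847 times that in members with only periportal landmarks in MASH livers (0.635 to 1.11) and 0.176 times in chow livers (0.133 to 0.229) at 12 weeks. At 24 weeks the quotient was 1.59 in MASH (0.863 to 2.75) and 0.148 in chow (0.0827 to 0.246). Cd36 gave 0.652 in MASH (0.487 to 0.857) and 0.157 in chow (0.0821 to 0.274) at 12 weeks, and 1.14 in MASH (0.648 to 1.88) and 0.102 in chow (0.0324 to 0.248) at 24 weeks. The MASH and chow intervals did not overlap for either gene at either week.

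These quotients rest on 44 pericentral members in MASH and 132 in chow at 12 weeks, and on 17 in MASH and 58 in chow at 24 weeks. Under the other readings of the landmarks and members, Lyve1 ranged from 0.811 to 0.928 in MASH and from 0.176 to 0.178 in chow at 12 weeks, and from 1.04 to 1.74 in MASH and from 0.141 to 0.192 in chow at 24 weeks. The other genes read in this way differed among themselves. Thbd, thrombomodulin, gave quotients of 5.29 in MASH and 7.92 in chow at 12 weeks, and of 6.24 in MASH and 6.87 in chow at 24 weeks. Plpp1, a lipid phosphatase, gave 2.07 in MASH and 2.41 in chow at 12 weeks, and 2.41 in MASH and 2.12 in chow at 24 weeks. Ptgs1, the constitutive cyclooxygenase, gave 3.56 in MASH and 3.19 in chow at 12 weeks but 1.52 in MASH and 4.58 in chow at 24 weeks. Fabp4 gave 1.94 in MASH and 2.59 in chow at 12 weeks, and 1.69 in MASH and 5.51 in chow at 24 weeks. Ly6a, periportal in chow members at 12 weeks with a quotient of 0.194 against 0.534 in MASH, gave 0.854 in MASH and 0.814 in chow at 24 weeks. Mrc1 gave 1.05 in MASH and 0.855 in chow at 12 weeks, and 1.08 in MASH and 0.901 in chow at 24 weeks.

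**Figure D5:**
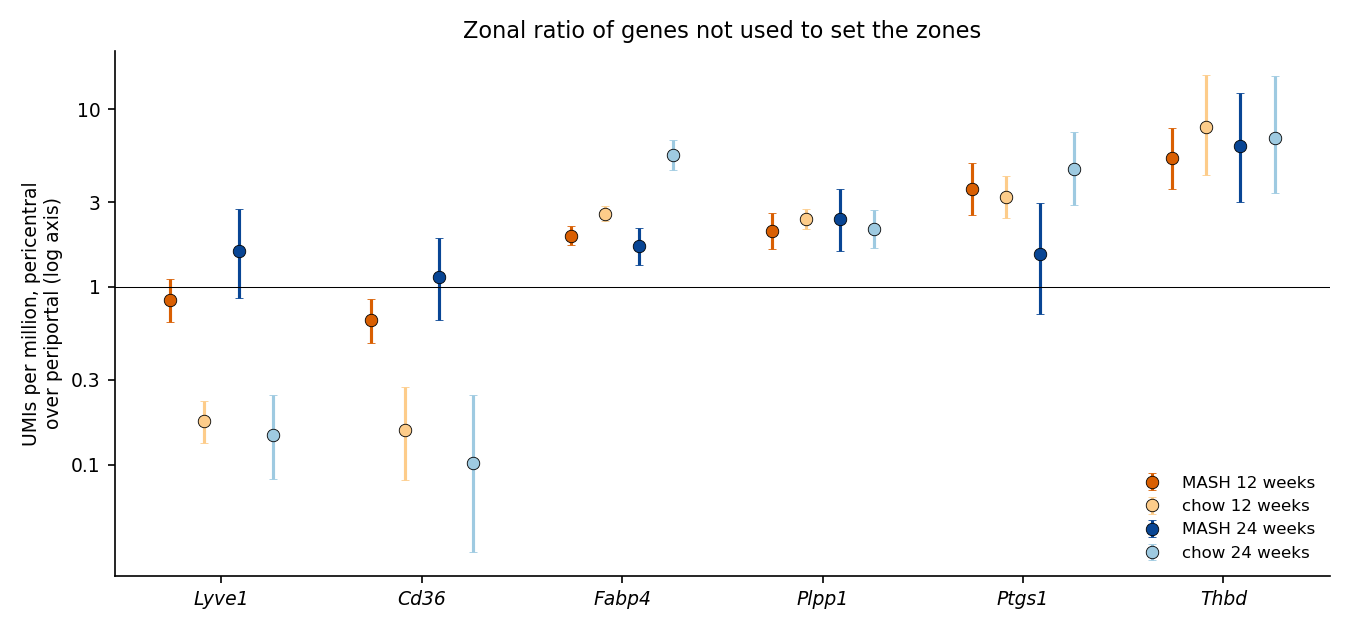
Level of each gene in members with only pericentral landmarks over that in members with only periportal landmarks, on a log axis with 95% counting intervals, for the 4 libraries. For Lyve1 the quotient was 0.847 in MASH and 0.176 in chow at 12 weeks and 1.59 in MASH and 0.148 in chow at 24 weeks, whereas Thbd lay between 5.29 and 7.92 in all 4.

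Ednrb was present in only part of the MASH members, and members with it were set beside members without it, a split made after values were seen. With members rich in other-cell RNA left out, 163 members had Ednrb and 427 had none at 12 weeks, with median depths of 2918 and 2041 UMIs. At 24 weeks 107 had it and 94 had none, with median depths of 3161 and 2051.5 UMIs. Rspo3 was 3.34 and 2.02 times as high in members with Ednrb at 12 and 24 weeks, Thbd 2.31 and 1.9998 times, Plvap 2.01 and 1.73 times and Jam2, a junctional adhesion molecule, 1.90 and 1.72 times. Ly6c1 gave 7.15 at 12 weeks (3.49 to 16.1) but 0.406 at 24 weeks (0.275 to 0.593), and Lyve1 gave 0.687 (0.614 to 0.767) but 1.59 (1.29 to 1.96). Cd36 gave 1.11 and 0.955. Depth moves with this split. Ednrb, Rspo3 and Plvap stood higher in Vwf-positive vascular cells than in members of every library. In MASH, at 12 and 24 weeks, Rspo3 stood at 4588 and 3309 CPM in vascular cells and 234 and 188 CPM in members. Plvap stood at 741 and 1456 CPM in vascular cells and 223 and 394 CPM in members. Clec4g, a gene of the rule, gave 1.01 in the split at both weeks. The parts of depth and of vascular cells without a Vwf UMI were not tested.

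Compared with Vwf-positive vascular endothelial cells of the same suspension, which number 127 in MASH and 140 in chow at 12 weeks and 67 in MASH and 83 in chow at 24 weeks, the genes most in excess in members of all 4 libraries were Adam23, Clec1b, Gatm, Dnase1l3, Tiam1, Esm1, Slc9a9 and Col13a1. Membership was read from the same cells, so this is a description. Clec1b, a C-type lectin that binds podoplanin, stood at 271 CPM in members and 23.7 CPM in vascular cells of the MASH library at 12 weeks, and at 307 CPM in members and 29.99 CPM in vascular cells of the chow library at 24 weeks. Gatm, an enzyme of creatine synthesis, stood at 381 CPM in members and 19.3 CPM in vascular cells of the MASH library at 12 weeks. The genes least present in members were Sprr2b, Thsd7a, Entpd1, Samd5, Nrg1, Col6a3, Bmp4 and Fbln2. Entpd1, the ectonucleotidase CD39, stood at 20.6 to 24.4 CPM in members and at 357 to 376 CPM in vascular cells over the 4 libraries. Ly6a was higher in vascular cells than in members of every library, at 1273 to 2369 CPM.

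Between the weeks, 339 of 10090 genes were higher at 24 than at 12 weeks in MASH members, 3.36%, and 290 were lower, 2.87%. In chow members 280 of 9147 were higher, 3.06%, and 252 lower, 2.76%. Ednrb rose 2.20-fold between the MASH libraries (1.93 to 2.51), Cd34 2.86-fold and Ly6c1 5.94-fold. Wnt2 fell to 0.492 between the MASH libraries (0.406 to 0.592), and its chow ratio was 1.05. Rspo3 had a ratio of 0.804 between the MASH libraries and of 1.94 between the chow libraries, so that its MASH over chow ratio at 24 weeks rested on the chow library as well. Klf2 likewise had ratios of 0.841 in MASH and 1.46 in chow. Between the MASH libraries the Cell Ranger release differed too, and week and release cannot be told apart.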

How the data were processed

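The authors deposited raw UMI counts per gene and barcode for 4 libraries, with hashtag counts as further features, per the file headers. Cell Ranger 5.0.1, or release 4 for the MASH library of 12 weeks, and the builds mm10 and GRCh38 are named in the submitters' processing notes. That library came as 737280 matrix columns with 19014 listed barcodes, which could not be matched to the columns, so its cells were taken as columns with at least 500 UMIs, of which there were 19091.

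Cells with at least 500 UMIs, 300 genes and at most 15% mitochondrial UMIs were kept in all libraries. Hashtags were assigned by a mixture of 2 components and never used as replicates. Scrublet (scanpy 1.11.5) called 60 and 26 doublets among MASH and chow members at 12 weeks and 19 and 30 at 24 weeks. They were left in, and removing them was an alternative.

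UMIs were summed over members and divided by their total. Ratios had exact conditional binomial intervals at 95%, and shares had Clopper-Pearson intervals (scipy 1.17.1, numpy 2.4.6, pandas 2.3.3, Python 3.11.15). A library with 0 UMIs was set to 3 UMIs. The script was tested on simulated data. Gene positions came from GENCODE M21 on GRCm38, which held 32158 of 32285 gene IDs.

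Named genes were the 12 per direction called at both weeks with the largest smaller change, leaving out genes at under 10% of their level in another cell class, and the 8 per direction against vascular cells with the largest ratio in all 4 libraries. Members with over 1% of UMIs from 1 marker list of another cell type were set apart after seeing the data. Members and lists were chosen with earlier results of these data known. The alternatives were stricter sums, filters and UMI minimums, the rule read at 1000 UMIs, doublets removed, single hashtags, subsets of the chow hashtags at 24 weeks, other scalings and mean shares per cell. Some genes of the lists are counted but not reported by name here.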

Additional observations from a re-analysis of the deposited data

Results flagged for a closer look

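For 18 of the genes read in the report, the MASH over chow ratio of sinusoidal members lay on opposite sides of 1 at the 2 weeks, with both 95% counting intervals clear of 1. The number of genes read is not given here, and the same count was not made over all 8414 genes compared at both weeks. Whether 18 is more than other genes would give therefore cannot be told. By the stricter rule of a call at both weeks, 3 of the 8414 genes turned in each direction. The difference between the weeks was not tested, since each group is 1 library.

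Signals and chemokines were among the genes above 1 at 12 weeks and below 1 at 24 weeks. The ratio of Bmp2 was 1.37 at 12 weeks and 0.527 at 24 weeks, and Vegfa, the VEGF-A gene, gave 1.47 and 0.507. Ccl2, a chemokine for monocytes, gave 3.24 and 0.528, Ccl5 gave 1.28 and 0.497, and Cxcl10 gave 2.06 and 0.707. Without members rich in other-cell RNA, Ccl2 gave 1.18 and 0.231. Ntn4, a netrin, gave 1.22 and 0.696.

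Egr1, an immediate early factor, gave 1.55 and 0.687, and 1.08 and 0.481 without members rich in other-cell RNA. The chaperones Hsp90aa1 and Hspa1b gave 1.37 and 0.534, and 1.69 and 0.645. These genes were picked for the turn itself. Over the whole immediate early and heat shock list, 1 of 14 genes was higher at 12 weeks and 1 of 14 lower at 24 weeks, with median log2 ratios of 0.33 and -0.14, and of -0.08 and -0.31 without members rich in other-cell RNA. Sod1, a superoxide dismutase, gave 1.17 and 0.697. The transcription factors Maf and Mef2c gave 1.20 and 0.636, and 1.21 and 0.753.

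Other genes were below 1 at 12 weeks and above 1 at 24 weeks. Cdkn2a gave 0.296 and 2.87, and both values were calls. Hk1, a hexokinase, gave 0.703 and 2.005, and Ldha, a lactate dehydrogenase, gave 0.864 and 1.51. Esm1, which encodes endocan, gave 0.685 and 1.31. Sox18, a factor of endothelium, gave 0.699 and 1.37, and Sparc, a matricellular protein, gave 0.743 and 1.11.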

How the results depend on the processing

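With 1 library per group nothing was tested, and intervals cover counting error only. The 24-week MASH members numbered 222, so genes at a few CPM could not be read there. Most calls rest on genes seen in few members, and only 1 hashtag of the MASH library of 24 weeks held 30 or more members. No paired analysis was possible because each group is 1 library and no result comes from a test.

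Of the main counts and shares, 102 readings under an alternative stayed near the main value and 18 moved. The share ratio at 24 weeks was 0.936 against chow hashtags 1 to 4 and 0.601 against chow hashtags 5 to 8. Genes higher at 12 weeks numbered 290 with the rule read at 1000 UMIs, 289 without doublets, 205 without members rich in other-cell RNA (a reading added after seeing the data) and 265 at a minimum of 50 UMIs. Genes higher at both weeks numbered 81, 100, 67 and 87 under the same 4 readings. At a minimum of 50 UMIs, 186 genes were higher at 24 weeks, and 118 and 152 were lower at 12 and 24 weeks. Genes lower at both weeks numbered 65 with the rule read at 1000 UMIs, 86 with 1 UMI of excluded genes allowed, 20 and 18 against chow hashtags 1 to 4 and 5 to 8, 17 at a minimum of 50 UMIs and 55 with no minimum. Fewer genes are compared at the higher minimum and more with none, and for the other readings the cause was not tested.

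List medians moved in 19 readings and stayed in 619. Single genes moved in 220 readings, stayed in 879 and reversed in 2, which were Rhou at 12 weeks, with 0.577, and Colgalt2 at 24 weeks, with 1.17, both with the rule read at 1000 UMIs. The cause was not tested.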
